A study of Mus musculus with 8 samples.

Results

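Nuclear receptors are transcription factors, many of which bind a small lipophilic ligand such as a steroid, retinoid, sterol or thyroid hormone and then regulate genes directly. They act through coactivators and corepressors, and Mediator, a large complex of head, middle, tail and kinase modules, connects such DNA-bound factors with RNA polymerase II. HDAC3 is the histone deacetylase of the NCoR/SMRT corepressor complex, through which unliganded receptors repress their genes. The genes described here are the protein-coding genes whose symbols name a nuclear receptor, a coactivator of the *Ncoa* or PGC-1 families, the corepressors *Nrip1*, *Lcor* and *Lcorl*, or a Mediator subunit. Of the 8278 genes in the deposited table of *Hdac3* KO against EV mouse cardiac endothelial cells (MCECs), 43 met this rule. Among them are 17 receptors, 9 coactivators and corepressors, and 17 Mediator subunits.

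Bulk RNA-Seq was available for 4 EV samples and 4 *Hdac3* KO samples of MCECs, a cell line from mouse heart grown in DMEM with serum. Both groups were transduced with lentivirus. EV cells received the empty vector, and *Hdac3* KO cells received lentiCRISPR v2 with guide RNA against *Hdac3*. The paper reports slower growth of the KO cells than of the EV cells, and its part in the results was not tested. The sources do not say whether the knockout line is 1 clone. The paper says that its experiments were repeated independently and that it gives numbers of biological samples. For in vitro work in general its reporting summary speaks of technical replicates. Which of these holds for these samples is not said, so the p-values measure only the spread between these samples. The recovered total of reads per library was 15775327 to 21262575 in EV and 19356714 to 22255684 in *Hdac3* KO MCECs, and the listed genes held 84.3% to 85.9% of them. The normalized count (reads divided by the relative library size) of *Hdac3* itself was 2058 ± 85 (SD, n = 4) in EV and 1513 ± 41 (SD, n = 4) in *Hdac3* KO MCECs. These counts are of RNA, and the paper checked the deletion at the protein level by western blot. Of 18 endothelial markers 7 were listed, none at 0 in all libraries, with a summed FPKM of 121 to 123 in EV and 91.3 to 94.4 in *Hdac3* KO MCECs. Of these 7, 6 were called lower and 1 higher by the test given below, against 49.6% and 47.1% of all listed genes. Their median log2 fold change was -0.30. *Pecam1*, a defining endothelial marker, had at most 1 read in an EV library and 2 to 9 reads in the *Hdac3* KO libraries. Of 14 fibroblast and mural markers 7 were listed, with a summed FPKM of 1483 to 1526 in EV and 1116 to 1138 in *Hdac3* KO MCECs, and *Col1a1* and *Col3a1* were the most abundant. Among these 7 markers, 6 were called lower and 1 higher, with a median log2 fold change of -1.42. None of 10 cardiomyocyte markers and 1 of 8 leukocyte markers, *Cd68*, were listed. *Cd68* had an FPKM of 5.36 to 5.89 in EV and 11.1 to 12.5 in *Hdac3* KO MCECs and was called higher (log2 fold change 1.20). The part of these marker differences in the results was not tested, and in bulk RNA fewer cells that express a gene and less RNA per cell cannot be told apart.

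The table is a selection on the same contrast, because it holds only genes that passed the authors' own test at an adjusted p-value under 0.05. Genes outside it are not analysed here. In RefSeq, 88 protein-coding symbols meet the rule, of which 46 are in the receptor group, 12 in the coregulator group and 30 in the Mediator group. No PPAR, no estrogen or estrogen-related receptor, no receptor of the NR5, NR6 or NR0 subfamilies and no *Med14*, the scaffold subunit of Mediator, was listed. A difference was called at an adjusted p-value under 0.01 from edgeR's quasi-likelihood test, adjusted over the 8278 genes. Of all listed genes, 96.7% were called, 49.6% as lower and 47.1% as higher in *Hdac3* KO MCECs. Among the 43 genes, 42 were called, 21 as lower and 21 as higher, which is close to the whole table and is no result about these genes. The 2 groups of libraries did not overlap for 39 of the 43 genes, against 91.1% of all listed genes.

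The counts by role were unequal, and no test was run on the difference between roles. Of the 17 receptors 13 fell and 4 rose, with a median log2 fold change of -0.38. Of the 9 coactivators and corepressors 6 fell and 3 rose (median -0.41). Of the 17 Mediator subunits 2 fell, 14 rose and 1 was not called (median 0.25). The median over all listed genes was 0.06, and 49.6% of them were called lower and 47.1% higher. An absolute log2 fold change over 0.5 was reached by 10 of the 43 genes, against 38.5% of all listed genes. Of these, 8 were lower, against 23.4% of listed genes, and 2 were higher, against 15.1%. All 10 are receptors or coactivators, and none is a Mediator subunit. Scaling to total reads without TMM factors lowers the log2 fold changes, by 0.12 at the median of all listed genes. Under that scaling 21 of the 43 genes were called lower and 12 higher, against 49.8% and 32.3% of all listed genes, so calls of small rises depend on it, whereas the distance of a class median from the median of all genes cannot, since the scaling moves all genes alike. That distance was -0.44 for receptors, -0.46 for coactivators and corepressors, and 0.19 for Mediator subunits under both scalings.

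**Figure D1:**
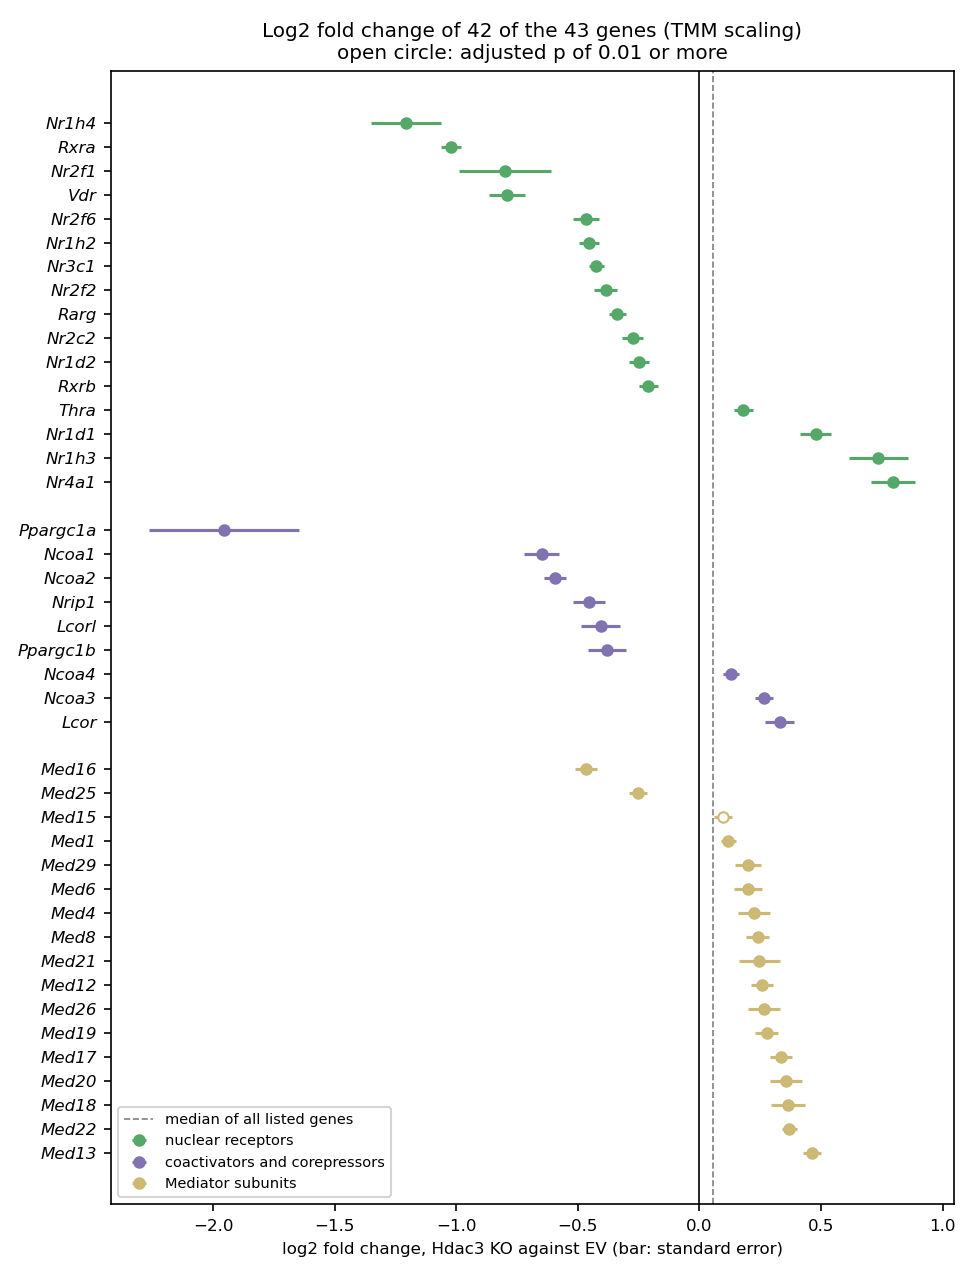
Log2 fold change of *Hdac3* KO against EV MCECs (x axis) for 42 of the 43 genes, by role, with the standard error as a bar. The open circle is *Med15*, which was not called, and the dashed line is the median of all listed genes, 0.06. Receptors spread from -1.21 to 0.80, whereas the Mediator subunits lie between -0.47 and 0.46.

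The promoter windows of RefSeq (GRCm38.p6, 250 bases before to 50 after a gene's start) held an entry for 36 of the 43 genes. The windows of *Rxra*, *Nr1h2* and *Nr1h3* are shown here as examples, and whether their sequences bear on expression was not tested. *Rxra* encodes a common dimer partner of many receptors and was lower in *Hdac3* KO MCECs, and *Nr1h2* and *Nr1h3* are the liver X receptor genes, which moved in opposite directions. RefSeq has 2 windows for *Rxra*. The downstream one, at chr2:27709042-27709341 on the plus strand, holds 1 CpG, and capitals mark 2 copies of AGGTCA, the half-site that many receptors bind, counted on both strands (TGACCT is its reverse complement).
Rxra: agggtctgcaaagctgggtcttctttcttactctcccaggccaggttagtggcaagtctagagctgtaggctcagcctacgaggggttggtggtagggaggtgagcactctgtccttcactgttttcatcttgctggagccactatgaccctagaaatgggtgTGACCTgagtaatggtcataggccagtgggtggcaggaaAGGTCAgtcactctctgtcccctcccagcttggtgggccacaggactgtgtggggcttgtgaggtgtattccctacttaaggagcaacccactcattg
The upstream window of *Rxra*, at chr2:27676951-27677250, has no half-site, 55 CpGs and a GC content of 83.0%. The window of *Nr1h2* lies at chr7:44553916-44554215 on the minus strand, with 19 CpGs and a GC content of 50.7%. The first of 2 windows of *Nr1h3* lies at chr2:91195067-91195366 on the minus strand, with 8 CpGs and a GC content of 63.0%. Neither window has a half-site.
Nr1h2: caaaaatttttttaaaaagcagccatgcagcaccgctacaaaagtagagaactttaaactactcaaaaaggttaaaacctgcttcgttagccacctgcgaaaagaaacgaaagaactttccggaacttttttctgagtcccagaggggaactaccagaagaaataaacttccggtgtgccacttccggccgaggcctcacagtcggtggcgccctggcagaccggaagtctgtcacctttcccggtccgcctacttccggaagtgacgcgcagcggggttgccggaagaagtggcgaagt
Nr1h3: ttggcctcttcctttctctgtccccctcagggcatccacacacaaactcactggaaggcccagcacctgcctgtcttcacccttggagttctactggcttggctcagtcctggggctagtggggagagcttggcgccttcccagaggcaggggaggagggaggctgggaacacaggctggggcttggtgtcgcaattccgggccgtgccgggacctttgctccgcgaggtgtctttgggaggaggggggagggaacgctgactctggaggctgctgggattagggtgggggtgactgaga

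The half-site was found in 7 of the 36 matched genes (19.4%), against 18.1% of all 27025 genes with a window, so these promoters held it about as often as others. It was in 4 of 17 genes that fell and 3 of 18 that rose. Besides *Rxra*, the fallers are *Nr1h4* (chr10:89506858-89506881, minus strand), *Nr1d2* (chr14:18239169-18239192, minus strand) and *Rarg* (chr15:102257733-102257756, minus strand). The half-site with 9 flanking bases on each side is shown for these 3 fallers and for the 3 genes that rose, *Ncoa4* (chr14:32165736-32165759, plus strand), *Med6* (chr12:81595050-81595073, minus strand) and *Med29* (chr7:28392729-28392752, minus strand).
Nr1h4: tgtggcattTGACCTccagccagt
Nr1d2: tggaagaagAGGTCAggaccgctc
Rarg: ccaggacacTGACCTctgccagct
Ncoa4: ggcggggcgTGACCTggccggtag
Med6: gaatactttTGACCTccccgctaa
Med29: ctaactaggAGGTCAgccaactga
The E-box CACGTG, which circadian clock factors bind, was in the windows of 2 of 36 genes, *Lcorl* and *Med17* (5.56%, against 8.09% of all genes with a window). The cyclic AMP response element TGACGTCA was in 1, *Med21* (2.78%, against 2.03%). The ROR response element, searched as a sequence pattern, and 2 direct half-sites with a spacing of 4 bases were in none. Of all genes with a window 0.459% and 0.0148% held them, so their absence is no result about these genes. The windows of the 36 genes had a median GC content of 61.7% and 20 CpGs, against 52.7% and 7 CpGs for all windows. All windows include those of genes that were not listed. The listed genes alone were not compared, so the difference is not shown to be particular to these 36 genes.

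Per length, the 43 genes spanned a wide range of levels in EV MCECs. The highest was *Rarg*, retinoic acid receptor gamma, with a mean FPKM of 39.4, followed by *Rxrb* with 35.0, *Med25* with 34.5, *Thra* with 32.5, *Nr1h2* with 32.3, *Nr3c1* with 31.8 and *Med22* with 31.4. The lowest were *Nr1h4* with 2.52, *Nr1h3* with 1.90, *Nr2f1* with 0.867 and *Ppargc1a* with 0.302. In *Hdac3* KO MCECs *Med22* was highest with 37.4, and *Nr2f1* and *Ppargc1a* were again the lowest with 0.458 and 0.0700. The summed FPKM of the 17 receptors was 260.1 ± 3.6 (SD, n = 4) in EV and 199.7 ± 4.2 (SD, n = 4) in *Hdac3* KO MCECs, and that of the 17 Mediator subunits was 277 ± 3.2 and 287 ± 3.2 (SD, n = 4). FPKM is scaled to total reads without TMM factors.

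**Figure D2:**
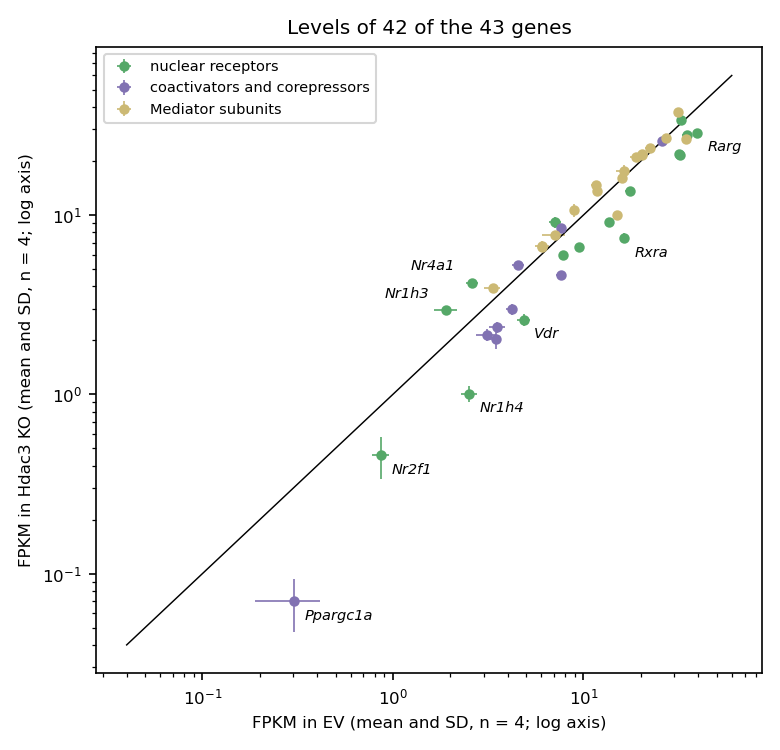
Mean FPKM of 42 of the 43 genes in EV (x axis) and *Hdac3* KO MCECs (y axis), both log axes, with the SD over 4 libraries as bars and a line of equal level. *Ppargc1a* and *Nr2f1* lie lowest in both groups, and *Rxra* and *Nr1h4* lie well below the line.

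Among the retinoid X receptors, which dimerize with retinoic acid, vitamin D, thyroid hormone, liver X and bile acid receptors, *Rxra* fell to 49.3% of its EV level. *Rxra* (ENSMUSG00000015846, chr2:27676440-27762957 of mm10) had normalized counts of 1492, 1557, 1496 and 1505 in EV and of 806, 758, 717 and 702 in *Hdac3* KO MCECs. The lowest EV library was far above the highest *Hdac3* KO library (log2 fold change -1.02 ± 0.04 standard error, edgeR adjusted p = 1.4e-21). *Rxrb* fell less, from 1726 ± 114 to 1496 ± 30 (SD, n = 4; log2 fold change -0.21 ± 0.04, edgeR adjusted p = 8.0e-06). The share of *Rxra* in the FPKM of the pair was 32.0% in EV and 21.1% in *Hdac3* KO MCECs, and their summed FPKM went from 51.4 ± 2.2 to 35.4 ± 0.61 (SD, n = 4). *Rarg*, the listed retinoic acid receptor, fell from 2185 ± 96 to 1732 ± 72 (SD, n = 4; log2 fold change -0.34 ± 0.04, edgeR adjusted p = 1.8e-10). *Thra*, thyroid hormone receptor alpha, was 1499 ± 60 in EV and 1704 ± 80 in *Hdac3* KO MCECs (SD, n = 4), a log2 fold change of 0.18 with TMM factors (edgeR adjusted p = 4.8e-05) and of 0.06 without them (edgeR adjusted p = 0.114).

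Of the listed receptors for sterols, bile acids and vitamin D, 3 of 4 fell, against 49.6% of all listed genes called lower. *Nr1h4*, the bile acid receptor FXR (ENSMUSG00000047638, chr10:89454234-89533585), had normalized counts of 90.2, 87.7, 95.1 and 108 in EV and of 38.9, 44.8, 45.2 and 36.6 in *Hdac3* KO MCECs. The highest *Hdac3* KO library was well under the lowest EV library (log2 fold change -1.21 ± 0.14, edgeR adjusted p = 2.6e-09). *Vdr*, the vitamin D receptor (ENSMUSG00000022479, chr15:97854425-97910630), had 350, 428, 409 and 413 in EV and 239, 209, 230 and 250 in *Hdac3* KO MCECs. The groups of *Vdr* did not overlap (log2 fold change -0.79 ± 0.07, edgeR adjusted p = 9.1e-12).

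The liver X receptors, sensors of oxysterols, went opposite ways. *Nr1h2*, LXR beta, fell from 1213 ± 25 to 886 ± 48 (SD, n = 4; log2 fold change -0.45 ± 0.04, edgeR adjusted p = 6.4e-12). *Nr1h3*, LXR alpha (ENSMUSG00000002108, chr2:91184061-91202834), had normalized counts of 61.7, 63.3, 80.4 and 78.0 in EV and of 119, 113, 121 and 124 in *Hdac3* KO MCECs. Each *Hdac3* KO library was above each EV library (log2 fold change 0.74 ± 0.12, edgeR adjusted p = 1.5e-06). Because *Nr1h2* was the more abundant, its share of the pair's FPKM was 94.4% in EV and 88.0% in *Hdac3* KO MCECs, and the summed FPKM went from 34.2 ± 0.69 to 24.7 ± 1.2 (SD, n = 4).

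The Rev-erb receptors are heme-binding repressors of the circadian clock. *Nr1d1*, Rev-erb alpha, rose from 363 ± 25 to 505 ± 34 (SD, n = 4; log2 fold change 0.48 ± 0.06, edgeR adjusted p = 2.2e-08), whereas *Nr1d2*, Rev-erb beta, fell from 1533 ± 88 to 1287 ± 76 (SD, n = 4; log2 fold change -0.25 ± 0.04, edgeR adjusted p = 2.1e-06). The share of *Nr1d1* in the pair went from 28.9% to 40.2%, with a summed FPKM of 24.6 ± 1.5 and 22.6 ± 1.0 (SD, n = 4). *Nr1d1* and *Thra* lie on opposite strands and overlap in 8.55% and 5.70% of their exonic bases. Counting is not stated to use strand, so reads in the overlap cannot be assigned to either gene.

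*Nr3c1*, the glucocorticoid receptor and the listed steroid receptor, fell from 3853 ± 174 to 2869 ± 45 (SD, n = 4; log2 fold change -0.42 ± 0.03, edgeR adjusted p = 1.3e-14). All 4 listed orphan receptors of the NR2 subfamily fell, against 49.6% of all listed genes called lower. *Nr2f1*, COUP-TFI (ENSMUSG00000069171, chr13:78188973-78199757), had normalized counts of 46.3, 49.98, 53.3 and 59.4 in EV and of 22.1, 34.8, 24.5 and 38.4 in *Hdac3* KO MCECs, from 21 to 67 reads a library. The groups did not overlap, and the standard error was the largest among the receptors (log2 fold change -0.80 ± 0.19, edgeR adjusted p = 0.00022). *Nr2f2*, COUP-TFII, a factor of venous identity, was more abundant per length (mean FPKM 9.45 against 0.867 in EV MCECs) and fell from 749 ± 18 to 573 ± 8.0 (SD, n = 4; log2 fold change -0.38 ± 0.05, edgeR adjusted p = 3.8e-09). *Nr2c2*, TR4, fell from 1125 ± 26 to 929 ± 53 (log2 fold change -0.27). *Nr2f6* fell from 568 ± 6.8 to 411 ± 21 (log2 fold change -0.47). Exons of other genes cover 54.4% of the exonic bases of *Nr2f6* (*Ocel1*, opposite strand) and 31.2% of those of *Nr2c2* (mostly *Mrps25*, opposite strand), so both counts are uncertain.

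*Nr4a1*, an immediate early receptor that is regulated mainly through its own level and has no known classical ligand, showed the largest rise of the 43 genes. *Nr4a1* (ENSMUSG00000023034, chr15:101266846-101274792) had normalized counts of 112, 118, 131 and 124 in EV and of 206, 220, 213 and 203 in *Hdac3* KO MCECs. The libraries within a group were close together and the groups far apart (log2 fold change 0.80 ± 0.09, edgeR adjusted p = 1.1e-09). No other NR4A receptor was listed.

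**Figure D3:**
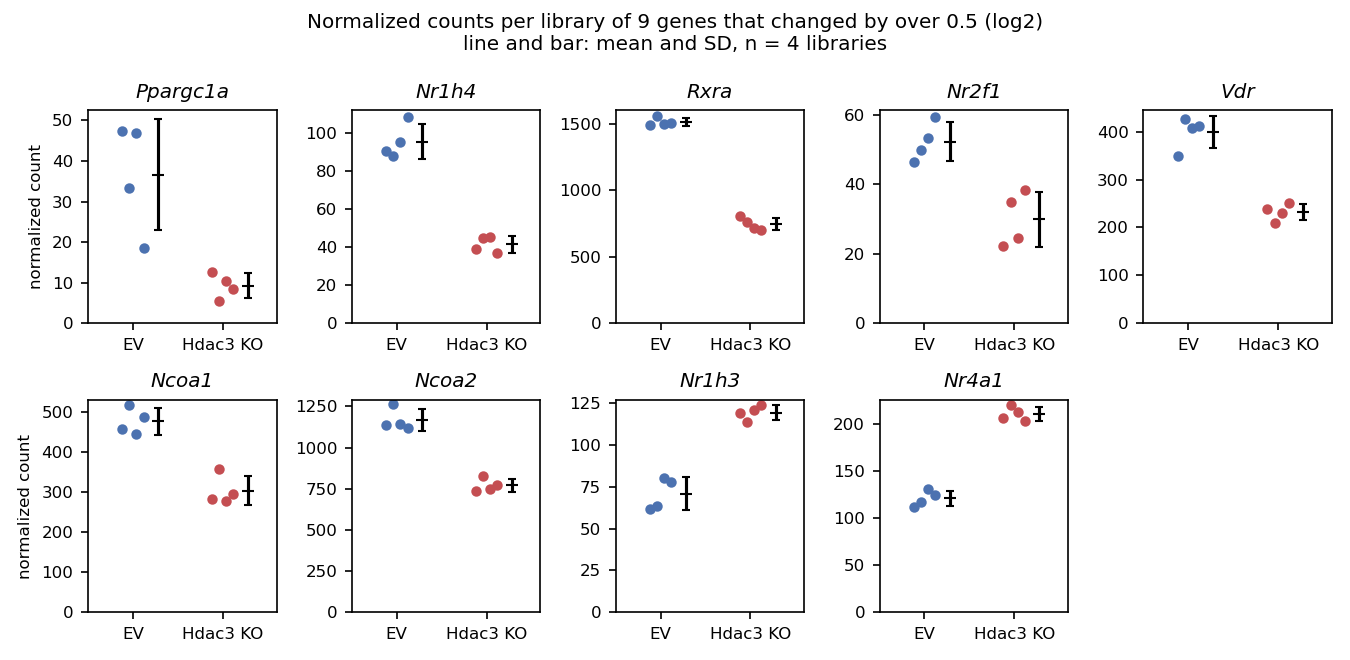
Normalized counts per library (points) of 9 of the 10 genes with an absolute log2 fold change over 0.5, in EV and *Hdac3* KO MCECs, with the mean and SD of 4 libraries; each y axis starts at 0. The groups do not overlap in any panel, and *Nr1h3* and *Nr4a1* are the 2 that rose.

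Among the coactivators, *Ppargc1a* had the lowest log2 fold change of the 43 genes. *Ppargc1a* encodes PGC-1 alpha, which drives mitochondrial biogenesis with several receptors (ENSMUSG00000029167, chr5:51454249-51567725). Its normalized counts were 47.5, 33.3, 47.0 and 18.6 in EV and 12.6, 5.49, 10.4 and 8.44 in *Hdac3* KO MCECs, from 21 to 45 reads in an EV library and 6 to 12 in a *Hdac3* KO library. The EV libraries were widely spread, but all lay above the *Hdac3* KO libraries (log2 fold change -1.96 ± 0.31, edgeR adjusted p = 5.8e-07). Leaving out any 1 library gave log2 fold changes between -2.21 and -1.76. The more abundant *Ppargc1b*, PGC-1 beta, fell from 289 ± 21 to 222 ± 15 (SD, n = 4; log2 fold change -0.38 ± 0.08, edgeR adjusted p = 3.4e-05), and *Pprc1*, the third gene of that family, which the rule does not include, rose from 2618 ± 43 to 3542 ± 129 (SD, n = 4; log2 fold change 0.44 ± 0.03, edgeR adjusted p = 3.5e-15).

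The 3 steroid receptor coactivators of the *Ncoa* family, histone acetyltransferase-recruiting partners of liganded receptors, did not move together. *Ncoa1* (ENSMUSG00000020647, chr12:4247363-4477182) had normalized counts of 456, 518, 444 and 487 in EV and of 282, 357, 279 and 295 in *Hdac3* KO MCECs. The groups did not overlap (log2 fold change -0.65 ± 0.07, edgeR adjusted p = 4.3e-10). *Ncoa2* (ENSMUSG00000005886, chr1:13139105-13374083) had 1136, 1264, 1143 and 1121 in EV and 737, 826, 749 and 774 in *Hdac3* KO MCECs. All *Hdac3* KO libraries were lower than all EV libraries (log2 fold change -0.59 ± 0.05, edgeR adjusted p = 6.0e-14). *Ncoa3* rose from 1079 ± 34 to 1296 ± 31 (SD, n = 4; log2 fold change 0.27 ± 0.04, edgeR adjusted p = 1.2e-07). The summed FPKM of the 3 genes was 18.7 ± 0.80 in EV and 15.1 ± 0.41 in *Hdac3* KO MCECs (SD, n = 4). *Ncoa4*, known also as a receptor for ferritin in autophagy, was 1969 ± 74 in EV and 2155 ± 60 in *Hdac3* KO MCECs (SD, n = 4). Its log2 fold change was 0.13 with TMM factors (edgeR adjusted p = 0.00064) and 0.01 without them (edgeR adjusted p = 0.757).

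Of the ligand-dependent corepressors, *Nrip1*, RIP140, which represses metabolic genes bound by receptors, fell from 521 ± 49 to 379 ± 25 (SD, n = 4; log2 fold change -0.46 ± 0.07, edgeR adjusted p = 1.2e-07). *Lcor* rose from 410 ± 31 to 516 ± 18 (SD, n = 4; log2 fold change 0.33 ± 0.06, edgeR adjusted p = 5.3e-06). Its paralog *Lcorl* fell from 333 ± 39 to 250 ± 20 (SD, n = 4; log2 fold change -0.41 ± 0.08, edgeR adjusted p = 2.3e-05). Their summed FPKM was 7.64 ± 0.58 in EV and 7.41 ± 0.34 in *Hdac3* KO MCECs (SD, n = 4).

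The FPKM share of 1 gene within a pair does not depend on how libraries are scaled. It was compared for 10 pairs with both genes listed, by an exact permutation test (two-sided). With 4 libraries a group there are 70 arrangements, so p cannot be under 0.0286. In 6 of the 10 pairs the genes were called in opposite directions, so a difference in share was fixed by those calls, and their shares are given as a description. Of the 4 pairs that fell together, the groups of libraries did not overlap in share for *Rxra* and *Rxrb* nor for *Ppargc1a* and *Ppargc1b* (exact p = 0.0286, n = 4). Adjusted over these 4 pairs, p was 0.0572, so neither difference passed 0.05, and the adjusted p of 0.0357 over all 10 pairs rests on the 6 fixed ones. The pairs were chosen from listed genes with earlier results known. Besides the shares given above, *Cdk8* made up 65.9% ± 1.3 of *Cdk8* and *Cdk19* in EV and 83.7% ± 0.66 in *Hdac3* KO MCECs (SD, n = 4). *Ncoa1* went from 31.2% to 19.4% of its sum with *Ncoa3*, and *Ncoa2* from 49.9% to 35.4%. *Lcor* went from 59.5% to 71.1% of its sum with *Lcorl*, and *Ppargc1a* from 6.72% to 2.31% of its sum with *Ppargc1b*. *Nr2f1* made up 8.41% ± 1.0 and 6.42% ± 1.6 of its sum with *Nr2f2* (exact p = 0.143, SD, n = 4), and *Ncoa1* made up 31.3% and 30.4% of its sum with *Ncoa2* (exact p = 0.343, n = 4).

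**Figure D4:**
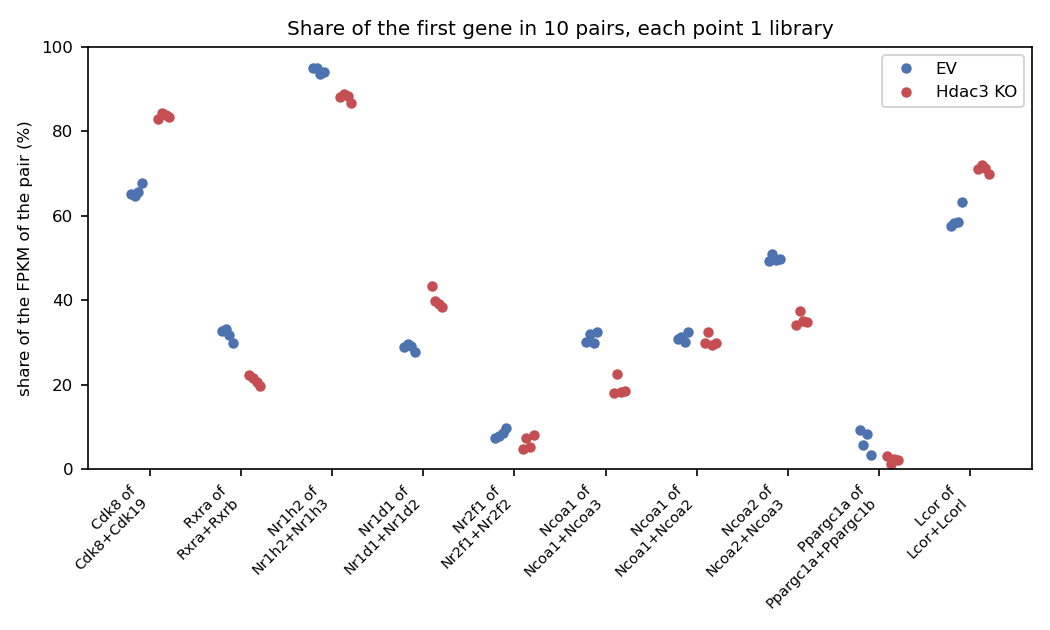
Share of the first gene in the summed FPKM of each of 10 pairs (y axis, %), each point 1 library of EV or *Hdac3* KO MCECs. The groups are separate in 8 pairs, with *Cdk8* of *Cdk8* and *Cdk19* at 65.9% and 83.7%, and they overlap for *Nr2f1* of *Nr2f1* and *Nr2f2* and for *Ncoa1* of *Ncoa1* and *Ncoa2*.

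Mediator subunits moved by small amounts. All 6 listed head subunits, which contact the polymerase, were higher (median log2 fold change 0.35), as were all 5 listed middle subunits (0.25). Of the 3 listed tail subunits, which contact activators, *Med16* and *Med25* fell and *Med15* was not called. *Med29*, placed here between head and tail and so not counted with the tail, was higher (log2 fold change 0.20, edgeR adjusted p = 0.00112). Without TMM factors *Med29* was not called (0.08, edgeR adjusted p = 0.159). Without TMM factors 4 of the 6 head subunits and 1 of the 5 middle subunits were called higher, against 32.3% of all listed genes. Over all 17 Mediator subunits, 14 were called higher with TMM factors, against 47.1% of all listed genes, and 7 without them, against 32.3%. *Med15* had a log2 fold change of 0.10 with TMM factors (edgeR adjusted p = 0.0115, with a call in 5 of the alternatives) and of -0.02 without them. Opposite-strand exons of other genes cover 21.4% of the exonic bases of *Med20*, 15.5% of those of *Med21*, 12.9% of those of *Med19* and 12.7% of those of *Med26*, so these counts are uncertain.

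The 2 subunits that fell had similar values across libraries. *Med16* had normalized counts of 878, 926, 867 and 929 in EV and of 650.2, 660.5, 666 and 631 in *Hdac3* KO MCECs. *Med25*, a subunit that binds retinoic acid receptors, had 1472, 1508, 1503 and 1470.5 in EV and 1284, 1259.7, 1224 and 1230.1 in *Hdac3* KO MCECs. Neither gene's groups overlapped (log2 fold changes -0.47 ± 0.04 and -0.25 ± 0.04, edgeR adjusted p = 1.7e-11 and 6.4e-08). The third lowest, *Med15*, had 1670, 1716, 1694 and 1804 in EV and 1912, 1900, 1717 and 1850 in *Hdac3* KO MCECs, and its groups overlapped.

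The largest rises of Mediator subunits were those of *Med13*, *Med22* and *Med18*. *Med13*, which tethers the kinase module to the core complex, had normalized counts of 2301, 2488, 2150 and 2262 in EV and of 3156, 3329, 2951 and 3225 in *Hdac3* KO MCECs (log2 fold change 0.46 ± 0.04, edgeR adjusted p = 1.8e-13). *Med22*, a head subunit, had 2051, 2005, 2082 and 2137 in EV and 2687, 2597, 2681 and 2736 in *Hdac3* KO MCECs (log2 fold change 0.37 ± 0.03, edgeR adjusted p = 6.0e-13). *Med18*, another head subunit, had 300.2, 279.9, 271 and 278 in EV and 384, 319, 372 and 377 in *Hdac3* KO MCECs (log2 fold change 0.36 ± 0.07, edgeR adjusted p = 1.8e-05). In each of these 3 genes every *Hdac3* KO library was above every EV library. *Med1*, the subunit best known for binding liganded receptors, had a log2 fold change of 0.12 with overlapping groups (edgeR adjusted p = 0.0011), and of 0.00 without TMM factors.

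In the kinase module, *Med12*, which activates the kinase, had normalized counts of 751, 824, 790 and 778 in EV and of 965, 997, 917 and 879 in *Hdac3* KO MCECs (log2 fold change 0.26 ± 0.05, edgeR adjusted p = 4.8e-06). The call of *Med12* was lost in 2 of 18 alternatives of scaling, test, filter or libraries. Reads of *Gm21986* on the same strand can fall in 9.72% of its exonic bases. The kinases and cyclin of the module, which the rule does not include, were listed too. *Cdk8* rose from 1272 ± 32 to 2477 ± 24 (SD, n = 4; log2 fold change 0.96 ± 0.03, edgeR adjusted p = 6.0e-24), more than any Mediator subunit did. *Ccnc*, its cyclin, rose by a log2 fold change of 0.36, whereas the alternative kinase *Cdk19* fell by 0.44 on the log2 scale. The summed FPKM of the 2 kinases went from 34.6 ± 1.1 to 48.8 ± 0.69 (SD, n = 4).

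**Figure D5:**
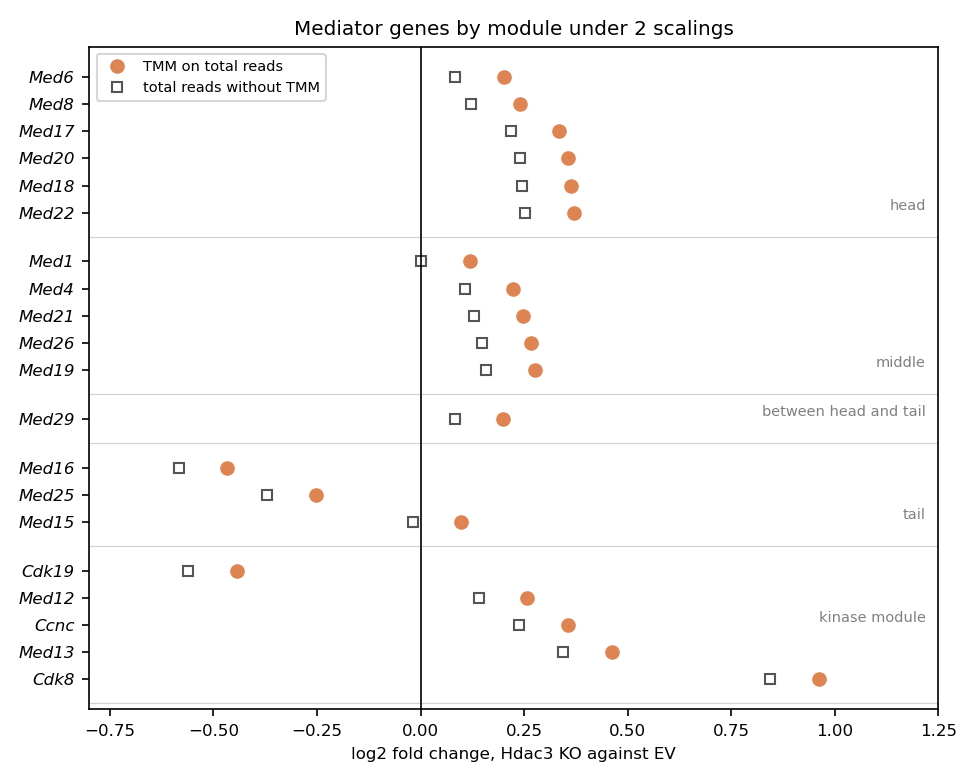
Log2 fold change (x axis) of the 17 Mediator subunits and of *Cdk8*, *Cdk19* and *Ccnc*, by module, with library sizes from TMM factors on total reads (circles) and from total reads alone (squares). The squares lie about 0.12 to the left of the circles; head and middle subunits stay at or above 0 under both, whereas *Med15* crosses 0.

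Genes that work with the receptors were described from lists chosen by function. Of 14 steroid receptor chaperones 13 were listed, of which 12 rose and 1 fell, against 47.1% and 49.6% of all listed genes. Without TMM factors 9 were called higher, against 32.3%. The highest were *Hsp90aa1*, an inducible HSP90 (log2 fold change 1.04 ± 0.03), and the cyclophilin *Ppid* (0.997 ± 0.04), and the gene that fell was *Stub1*, the ubiquitin ligase CHIP (-0.45 ± 0.04), whose count is uncertain because exons of *Jmjd8* on the other strand cover 42.3% of its exonic bases. Of the NCoR/SMRT complex 4 of 6 genes were listed. *Hdac3* (-0.45) and *Gps2* (-0.17, a call lost with DESeq2, adjusted p = 0.0102, and with a library left out, adjusted p up to 0.0189) were lower, and *Tbl1xr1* (0.89) and *Tbl1x* (0.53), the WD40 subunits of the complex, were higher. Of 30 other coactivators 19 were listed, of which 12 rose, 6 fell and 1 was not called, with 8 called higher without TMM factors. *Ep400*, 1 of the 12, lost its call also with a library left out (edgeR adjusted p up to 0.0118). *Hmga1*, an architectural chromatin protein (0.94 ± 0.04), and *Carm1*, an arginine methyltransferase partner of the *Ncoa* coactivators (0.64 ± 0.04), were highest. The SWI/SNF genes *Smarcd3* (-1.20 ± 0.08) and *Smarca2* (-0.95 ± 0.05) were lowest. Opposite-strand exons cover 48.2% of the exonic bases of *Smarcd3* and 21.1% of those of *Carm1*, so both counts are uncertain.

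The listed genes went both ways in every list of receptor targets, and some of these lists also hold genes that make or handle a ligand. The counts that follow stand against 49.6% of all listed genes called lower and 47.1% called higher. Of 20 glucocorticoid receptor targets 14 were listed, of which 9 rose and 5 fell. *Ddit4*, an inhibitor of mTOR signalling, rose (log2 fold change 1.26 ± 0.05), and *Cebpd* (-1.40 ± 0.06) and *Tgm2* (-0.76 ± 0.03) were lowest, with 15% and 21.8% of their exonic bases under opposite-strand exons. *Lcn2*, which had the highest fold change, had at most 7 reads in any library. Of 19 retinoid genes 8 were listed, of which 6 fell and 2 rose. *Cyp26a1*, 1 of the 6, had overlapping groups. Its call was lost with a library left out (edgeR adjusted p up to 0.0175) and with adjustment over 30000 genes (edgeR adjusted p = 0.0116). *Dhrs3*, a retinal reductase that retinoic acid induces, fell from 6297 ± 204 to 2560 ± 151 (SD, n = 4, log2 fold change -1.30 ± 0.03). The 2 genes of this list that rose, *Rdh10* (0.59 ± 0.09) and *Aldh1a1* (0.31 ± 0.02), make retinal and retinoic acid. The median of these 8 genes was -1.06.

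Of 12 LXR targets 6 were listed, of which 4 rose and 2 fell. The desaturase *Scd2* (log2 fold change 1.06 ± 0.02) and the transporter *Abcg4* (1.10 ± 0.36, few reads) were highest. *Abcg4* lost its call without TMM factors (edgeR adjusted p = 0.0124) and with DESeq2 (adjusted p = 0.0139). That call was also lost with a library left out (edgeR adjusted p up to 0.0239) and with adjustment over 30000 genes (edgeR adjusted p = 0.0172). Lowest were *Mylip*, a ligase for the LDL receptor (-1.15 ± 0.12), and the cholesterol exporter *Abca1* (-0.52 ± 0.03). Of 26 targets of PPARs and PGC-1 18 were listed, of which 8 rose, 9 fell and 1 was not called. *Ech1*, 1 of the 9, lost its call with a library left out (edgeR adjusted p up to 0.0133). *Angptl4*, an inhibitor of lipoprotein lipase (2.58 ± 0.33, 3 to 7 reads in an EV library), and *Acot2*, a mitochondrial thioesterase (1.39 ± 0.05), were highest. The fatty acid binding protein genes *Fabp4* (-1.35 ± 0.29) and *Fabp5* (-1.01 ± 0.03) were lowest.

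Of 20 clock genes and Rev-erb or ROR targets 14 were listed, of which 8 rose and 6 fell. *Npas2* had 0 reads in every EV library and 1 to 5 in the *Hdac3* KO libraries, which is too few for a fold. *Ciart*, a clock repressor, rose from 61.4 to 194 (log2 fold change 1.65 ± 0.12), and *Per3* (-0.85 ± 0.09) and *Bhlhe41* (-0.77 ± 0.10), both also repressors, were lowest. Opposite-strand exons cover 19.0% of the exonic bases of *Bhlhe41*. Of 12 estrogen receptor targets 6 were listed, of which 4 rose and 2 fell, with *Areg* (1.87 ± 0.48, few reads) and *Ccnd1* (0.996 ± 0.05) highest and *Cxcl12* (-2.24 ± 0.04) and *Xbp1* (-0.33 ± 0.04) lowest. Opposite-strand exons cover 23.4% of the exonic bases of *Ccnd1*. Of 22 genes of vitamin D, thyroid hormone and hormone handling 6 were listed, of which 2 rose and 4 fell, with *Hr*, a corepressor that thyroid hormone induces (0.55 ± 0.04), and *Hsd17b12* (0.45 ± 0.03) highest and *Hsd17b11* (-0.82 ± 0.09) lowest.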

How the data were processed

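The authors sequenced bulk RNA-Seq libraries of EV and *Hdac3* KO MCECs on an Illumina NextSeq500. Alignment to mm10 used tophat2 and bowtie2. For each gene the authors deposited the raw read count. The paper names the R package lumi for extracting the count matrix, and the cufflinks suite and DESeq2 for differential expression. Beyond this, the program that counted reads and the annotation are not named in the sources used here. The deposited FPKM rests on each gene's count and length and on its library's total. The submitters' processing notes name CASAVA and DESeq 1.6.3. The authors' fold changes, p-values and group means are also in the table and were not used.

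The 43 genes, the gene lists and the pairs were chosen with earlier results of these data known. Receptors and coregulators are named, except where values of single genes are not reported here. Of the Mediator subunits the 3 highest and 3 lowest and the kinase module are named, and of other lists up to 2 highest and 2 lowest called genes. *Med1*, *Med29*, *Pprc1*, the marker genes and the genes of sequence windows and overlaps are named besides.

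Each library's total was solved from the count, length and FPKM of every gene (median over genes), multiplied by TMM factors and used in edgeR 4.0.16 (R 4.3.3) for the quasi-likelihood test, without a low-count filter. Errors beside log2 fold changes are standard errors. The coefficient of variation between libraries beyond counting noise was 2.82%, and the smallest absolute log2 fold change called was 0.07. Reads carry no molecular identifiers, so depth limits cover counting error only. Summed FPKM and shares used the deposited FPKM. Alternatives were DESeq2 1.42.0, other scalings, limma 3.58.1 on log2(FPKM + 0.1) and log2(FPKM + 1), a filter at 10 counts in 4 libraries, a replicate block, each library left out, a fit of protein-coding genes, stricter and looser cut-offs, and adjustment over 30000 genes. Exon overlaps come from GENCODE of the same build. Coordinates of genes are those of the deposited table.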

Additional observations from a re-analysis of the deposited data

Results flagged for a closer look

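In the 86 groups of 4 libraries formed by the 43 genes and both conditions, 3 held a library that stood apart from the other 3, where chance gives about 4.3 (1 in 20). *Ncoa2* was at a normalized count of 1263.82 in EV replicate 2, against 1121 to 1143 in the other EV libraries. *Nr2f6* was at 557.77 in EV replicate 1, against 570.28 to 572.52 in the others. *Nrip1* was at 342.21 in *Hdac3* KO replicate 4, against 387 to 395 in the others. The calls of these 3 genes held with each library left out in turn.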

How the results depend on the processing

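Of the 43 genes, 31 kept their direction and call under all 18 alternatives of scaling, test, filter or libraries, which leave out the other cut-offs. In at least 1 alternative, 1 gene reversed and 11 lost their call. The 11 were *Med1*, *Med4*, *Med6*, *Med8*, *Med12*, *Med20*, *Med21*, *Med26*, *Med29*, *Ncoa4* and *Thra*. *Med15* was not called in the fit reported (edgeR adjusted p = 0.0115). It was called higher with DESeq2 (0.11, adjusted p = 0.00883) and with DESeq2 size factors in edgeR (0.11, adjusted p = 0.00448). With edgeR it was also called higher with protein-coding genes only (0.10, adjusted p = 0.00771), without EV replicate 4 (0.12, adjusted p = 0.00403) and without *Hdac3* KO replicate 3 (0.14, adjusted p = 8.1e-04). The protein-coding fit was across those genes, and the other fits were across all listed genes. *Med15* was at -0.019 without TMM factors and at -0.018 and -0.017 with limma on log2(FPKM + 0.1) and log2(FPKM + 1). Without TMM factors 12 of the genes, 7 of them Mediator subunits, were called higher, as were 2671 of all 8278 listed genes. With limma these counts were 10 and 5 (pseudocount 0.1) and 11 and 6 (pseudocount 1), and 2583 and 2532 of all listed genes were higher. At an adjusted p under 0.001, 16 of the 43 genes (9 of them Mediator subunits) and 3289 of all listed genes were higher. With an absolute log2 fold change over 0.5, 1935 listed genes were lower and 1249 higher; of the 43, 8 were lower and 2 higher (receptors 5 and 2, coactivators and corepressors 3 and 0, Mediator subunits 0 and 0). Over 1, the numbers were 692 and 367, 3 and 0, 2 and 0, 1 and 0, and 0 and 0. With each library left out in turn, 19 to 22 genes were higher and 21 lower, and *Med4* and *Med21* lost their calls. *Med4* was at 0.17 without EV replicate 3 and 0.19 without *Hdac3* KO replicate 4. *Med21* was at 0.21 and 0.18 without EV replicate 1 or 2 and at 0.24 without *Hdac3* KO replicate 3 or 4, and lost its call also with adjustment over 30000 genes (adjusted p = 0.0221). Without TMM factors 9 of 13 chaperones, 8 of 19 other coactivators, 7 of 18 PPAR and PGC-1 targets, 7 of 14 clock genes, 3 of 6 estrogen receptor targets and 3 of 6 LXR targets were called higher, against 12, 12, 8, 8, 4 and 4 with them. The number of pairs whose share differed at an adjusted p under 0.05, 6 of them fixed by opposite calls, went from 8 to 0 with adjustment over only the 4 pairs called in the same direction, a choice made after seeing the data. It was also 0 without any 1 library, because 3 libraries against 4 cannot reach a p under 0.05; the direction of the differences did not change. Replicate numbers are only labels, as same-numbered libraries correlated at -0.11 to 0.12 in their deviations from the group means over 7187 genes. Fitting that number as a replicate block gave 21 lower and 21 higher of the 43, as without it.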
